A study of Danio rerio with 6 samples.

Results

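Goblet cells are secretory cells of mucous epithelia, and the genes described here encode their gel-forming mucins and a chaperone of the endoplasmic reticulum needed to make them. The list holds 6 genes, chosen by name, namely agr2, muc2.1, muc2.2, muc5.1, muc5.2 and muc5.3. A row with the gene's symbol was found for 4 of the 6 in a table of 25920 genes. No row carried the symbols muc2.2 and muc5.3, which were therefore not analysed here. All 4 genes found, agr2, muc2.1, muc5.1 and muc5.2, passed the filter on low counts.

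The libraries came from zebrafish carrying Tg(myl7:mCherry), a transgene in which a heart muscle promoter drives a red fluorescent protein. Fish of both groups carried it and were raised at 28 °C. The DAPT group was kept in 100 µM DAPT from 60 to 96 hours post fertilization (hpf), and the DMSO group received the solvent DMSO over the same time. DAPT inhibits gamma-secretase, the protease that frees the intracellular part of Notch receptors. It acts on the whole animal and on other substrates of the protease too. Each group had 3 libraries. No label gives them separate clutches, so the replicate error behind each p-value may be technical only. The sample labels give hearts as the tissue, whereas the design text speaks of embryos. Skin epithelium genes summed to 17550 to 19390 TPM (read density per gene length, scaled to the same sum in every library) with DMSO, against 5573 to 6824 TPM for heart muscle genes, and with DAPT the sums were 15390 to 15840 and 8749 to 9234 TPM. Genes of absorptive enterocytes, the main cells of the gut lining, summed to 2521 to 2722 TPM with DMSO and 3535 to 3770 TPM with DAPT. Transcripts of genes known from skin and gut were therefore present in every library beside those of heart muscle. Libraries held 20542549 to 21808613 counts.

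Gel-forming mucins are very long secreted proteins rich in threonine, serine and proline, to which many sugar chains are attached before the mucin is packed into granules and released as mucus. The protein made from agr2 belongs to the protein disulphide isomerase family. In mice it is needed to produce the intestinal mucin Muc2, and in zebrafish agr2 is needed for intestinal goblet cells to mature. In the gut of zebrafish and mice, Notch signalling holds epithelial progenitors back from secretory fates, and its loss is known to give more secretory cells. In zebrafish larvae mucous cells also lie in the skin, pharynx and oesophagus. In whole-animal or mixed-tissue RNA, fewer cells of a type and less RNA per cell cannot be told apart.

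Transcripts of 3 of the 4 goblet cell genes were called lower with DAPT, those of agr2 and muc5.2 in every analysis run and those of muc2.1 in most. The direction of muc2.1 was lower in each analysis that tested it. With edgeR's quasi-likelihood F test, 3 of the 4 genes fell at an adjusted p of 0.05 (Benjamini-Hochberg over all genes tested), namely muc5.2, muc2.1 and agr2. The other, muc5.1, did not pass. None rose, also at an unadjusted p of 0.05 and with DESeq2, and none rose in any of 14 alternative analyses. Of all 22092 genes tested, 24.3% were lower and 22.4% higher with DAPT, so that a call was common. The median log2 fold change of the 4 genes was -0.61, against -0.004 over all genes tested. All changes below are DAPT minus DMSO on the log2 scale, from counts scaled with TMM factors, and are given ± standard error. The share of calls that were higher was 48.0% with TMM factors, 32.5% with library totals alone and 24.9% on log2(TPM + 1). Compared with the TMM scale, the change of a gene shifted by a median of -0.144 on log2(TPM + 1). TPM values below therefore serve for levels and the TMM scale for changes.

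The most abundant transcript was that of agr2 (gene ID 335616), the chaperone gene. It had 143.6, 161.9 and 171.6 TPM in the DMSO libraries and 103, 98.8 and 111 TPM in the DAPT libraries. Every DAPT library lay below every DMSO library. Its read counts were 1864, 2072 and 2237 with DMSO and 1465, 1401 and 1580 with DAPT. These were all whole numbers, so that none was visibly divided among similar genes. On the TMM scale agr2 went from 96.6 ± 6.63 to 70.9 ± 3.06 CPM (counts relative to the TMM-adjusted library size; SD, n = 3). The change was -0.45 ± 0.06 (95% interval -0.58 to -0.31, adjusted p = 0.000132, edgeR), a level lower by 26.6%. It passed in all 14 alternatives, with an adjusted p of 3.2e-07 to 0.00174. In a ranking of all tested genes by change, 18.3% had a larger fall than agr2.

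The mucin gene with the largest fall was muc5.2 (gene ID 572172), a member of the family named after the human gel-forming mucins of airway and stomach. It had 4.57, 5.56 and 6.35 TPM with DMSO and 1.83, 2.17 and 1.94 TPM with DAPT. The groups were far apart, with the lowest DMSO library above the highest DAPT library by more than the whole spread of the DAPT group. In reads, muc5.2 had 707, 845 and 984 with DMSO and 309, 366 and 324 with DAPT. Values in 5 of the 6 libraries were not whole, which was taken to mean that part of the reads was divided among similar genes, and the single-gene value is uncertain to that extent. The TMM-scaled level went from 39.6 ± 5.55 to 16.0 ± 1.66 CPM, a change of -1.31 ± 0.11 (95% interval -1.55 to -1.08, adjusted p = 1.43e-06, edgeR). This is a level lower by 59.8%, and 3.26% of all tested genes had a larger fall. It passed in all 14 alternatives, with an adjusted p of at most 6.45e-05.

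The gene muc2.1 (gene ID 100332798), named after the main intestinal gel-forming mucin, was barely detected. It had 29, 32 and 32 reads with DMSO and 16, 16 and 21 with DAPT. Summed over 3 libraries this is 93 reads (exact Poisson 95% interval 75.1 to 113.9) and 53 reads (39.7 to 69.3), intervals that cover counting error only. The intervals did not overlap, and neither did the values of single libraries, but each DAPT value rested on few reads. As TPM the gene had 1.03, 1.15 and 1.13 with DMSO and 0.52, 0.52 and 0.69 with DAPT. The change was -0.78 ± 0.23 (95% interval -1.28 to -0.28, adjusted p = 0.0146, edgeR). The call was lost with DESeq2 (adjusted p = 0.0841), without DAPT replicate 1 (adjusted p = 0.0583) and without DAPT replicate 2 (adjusted p = 0.0514), against 0.00443 to 0.0841 over 13 alternatives. With a filter of 5 CPM in 3 libraries the gene was not tested.

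The gene muc5.1 (gene ID 100148804) took the most reads of the 4 and changed least. It had 6611, 7535 and 6680 reads with DMSO and 5991, 6658 and 6057 with DAPT, all whole. As TPM it had 33.4, 38.8 and 33.8 with DMSO and 27.8, 30.8 and 28.4 with DAPT. On that scale the groups were apart, but after TMM scaling they overlapped, at 316, 358 and 305 CPM with DMSO and 286, 325 and 285 CPM with DAPT. The change was -0.13 ± 0.08 and did not pass (adjusted p = 0.188, edgeR). Its 95% interval, -0.29 to 0.04, leaves out a fall as large as that of agr2. The result depended on the scaling. With library totals alone muc5.1 passed at -0.23 (adjusted p = 0.0169), where 31.6% of all genes were called lower, and with limma on log2(TPM + 1) at -0.27 (adjusted p = 0.0113), where 35.6% were. Over 14 alternatives its adjusted p was 0.0113 to 0.56. It did not pass in any of the 6 fits that left out 1 library on the TMM scale, where it was -0.19 to -0.05.

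In 3 of the 4 genes the groups did not overlap on the TMM scale, all lower with DAPT, and in 4 of 4 as TPM. Over all tested genes the groups were apart and lower with DAPT in 29.0% on the TMM scale and in 42.3% as TPM.

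**Figure D1:**
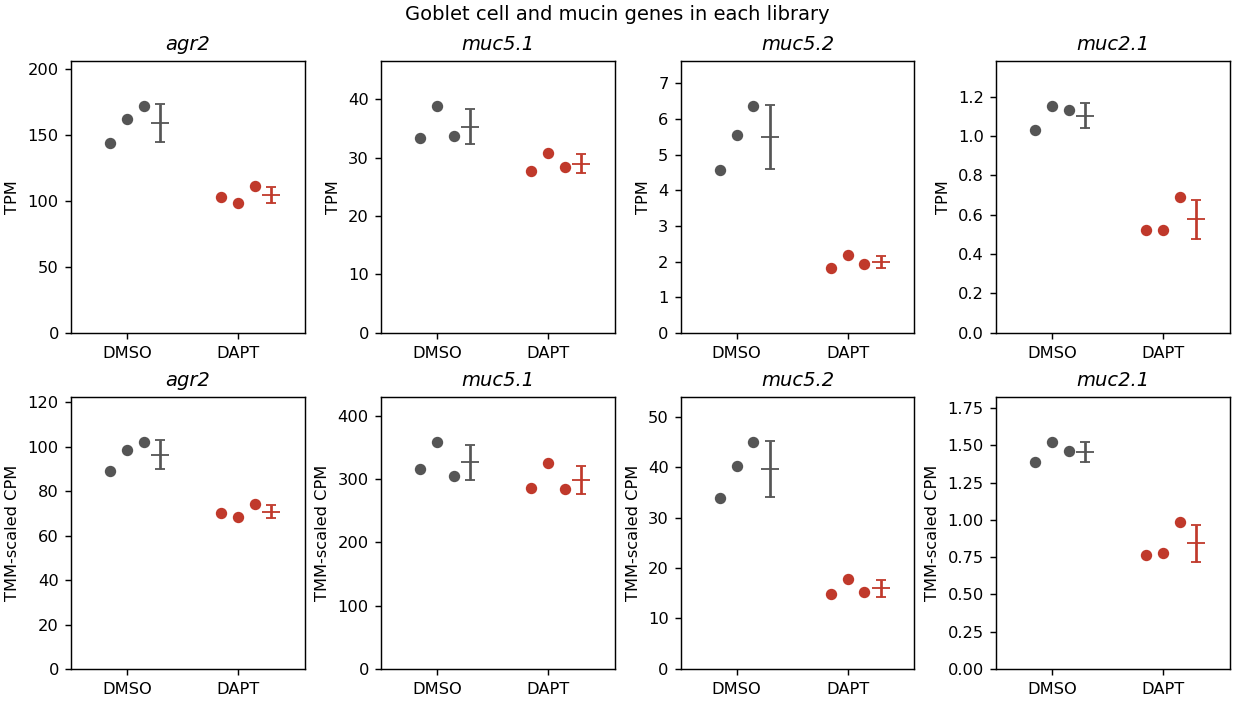
Level of each gene in each library, as deposited TPM (top row) and as TMM-scaled CPM (bottom row), with each axis starting at 0. Points are libraries, and the bar beside them is the mean ± SD of 3. The DAPT points of agr2, muc5.2 and muc2.1 lie below all DMSO points in both rows, whereas those of muc5.1 overlap the DMSO points in the bottom row.

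Levels per length kept the order agr2, muc5.1, muc5.2, muc2.1 in every library of both groups. Means over the 6 libraries were 131.7, 32.1, 3.74 and 0.84 TPM. No neighbours in this order came near each other, since the lowest library of the higher gene was above the highest library of the lower one in each step. The chaperone gene thus stood above 96.4% of the genes in the table and muc5.1 above 85.1%, while muc5.2 stood above 40.2% and muc2.1 above 20.5%. Lengths derived from the deposited FPKM were 1026 bp for agr2, 15601 bp for muc5.1, 12198 bp for muc5.2 and 2231 bp for muc2.1. The long mucin genes therefore give many reads at a modest level per length. The level of muc2.1 rests on a short gene model.

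The summed level of the 4 genes was 182.6, 207.4 and 212.9 TPM with DMSO and 133.3, 132.3 and 142.3 TPM with DAPT. The means were 201 ± 16.1 and 136 ± 5.52 TPM (SD, n = 3), a ratio of 0.677. The exact two-sided permutation p was 0.1, the smallest that 3 against 3 libraries allow. Of the sum, 79.1 ± 1.34% came from agr2 with DMSO and 76.8 ± 1.86% with DAPT, and these shares overlapped between the groups. Without agr2 the sum of the 3 mucin genes had a ratio of 0.753 (41.9 to 31.5 TPM). Most of that sum was muc5.1 (35.3 to 29.0 TPM), whose change did not pass on the TMM scale (-0.13 ± 0.08). The typical gene, too, read lower with DAPT as TPM than on the TMM scale (shift -0.144 for log2(TPM + 1)). The ratios 0.677 and 0.753 were not corrected for this shift. Summed as TMM-scaled CPM, the ratio of the 4 genes was 0.833. That sum differs in scale and also in weights, since muc5.1 has most of its reads.

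The genes did not fall by the same amount. Ratios between genes within a library do not depend on how libraries are scaled to each other, and all 6 pairs were compared. The largest shift was in muc5.1 over muc5.2, whose log2 ratio of TPM was 2.87, 2.80 and 2.41 with DMSO and 3.92, 3.83 and 3.87 with DAPT. The mean difference was 1.18, several times the SD of 0.247 within the DMSO group and 0.0478 within the DAPT group. For agr2 over muc5.2 the log2 ratio was 4.97, 4.86 and 4.76 with DMSO and 5.82, 5.51 and 5.84 with DAPT, a difference of 0.86. The ratio agr2 over muc5.1 moved the other way, from 2.11, 2.06 and 2.35 to 1.89, 1.68 and 1.97, a difference of -0.32. The pairs with muc2.1 shifted by 0.34 (agr2 over muc2.1), -0.66 (muc2.1 over muc5.1) and 0.52 (muc2.1 over muc5.2), and they rest on its few reads. In each pair the DAPT libraries lay on one side of the DMSO libraries, and the exact two-sided permutation p was 0.1 for each (0.1 after adjustment over the 6 pairs), the smallest this design allows.

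**Figure D2:**
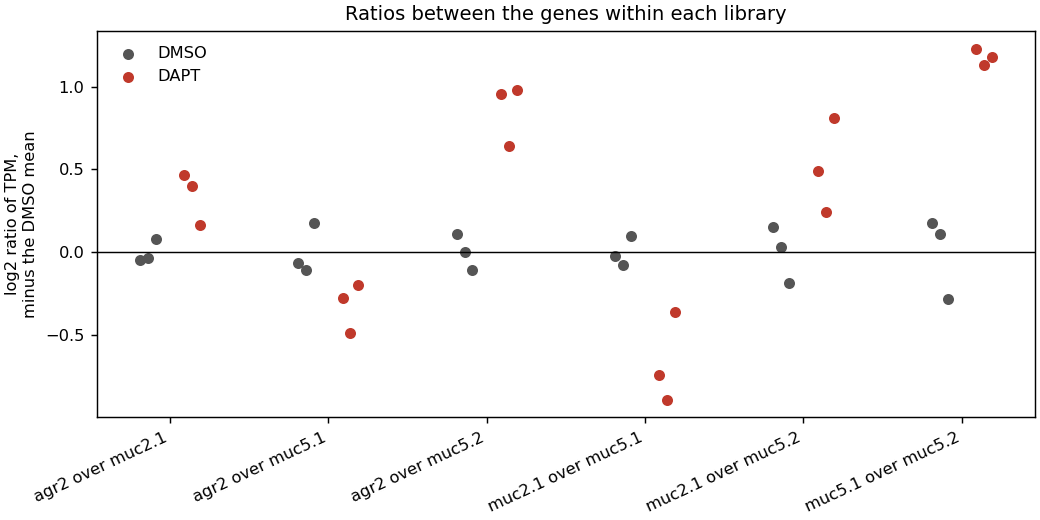
Log2 ratio of TPM between each pair of genes within each library, with the DMSO mean of that pair subtracted. Points are libraries. The DAPT libraries of muc5.1 over muc5.2 lie about 1.18 above the DMSO mean, and those of agr2 over muc5.1 lie below it.

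Other gel-forming mucin genes carry the symbols muc5d, muc5e and muc5f in the table. They were not on the list and were chosen after their values were seen. Reads of muc5f were 509.8, 386.5 and 443.5 with DMSO and 211.9, 228.0 and 196.1 with DAPT, none of them whole. Its change was -1.05 ± 0.11 (adjusted p = 1.45e-05, edgeR), close in size to that of muc5.2. For muc5e there were 68, 66 and 84 reads with DMSO and 25, 37 and 35 with DAPT, a change of -1.14 ± 0.19 (adjusted p = 0.000418, edgeR). The gene muc5d had 29, 20 and 32 reads with DMSO and 32, 35 and 35.9 with DAPT, and its value of 0.37 ± 0.22 was not called (adjusted p = 0.193, edgeR). The family was thus not uniform: muc5.2, muc5e and muc5f fell, while muc5.1 and muc5d did not pass. Since muc5.2 and muc5f both had counts that were not whole, their falls may rest partly on the same reads and are not shown to be separate. In the RefSeq annotation of assembly GRCz12tu, which is not the build used for the counts, muc5.1 and muc5.2 are neighbours with 0 protein-coding genes between them. On that chromosome muc2.1 lies 5 protein-coding genes and muc5d 7 from muc5.1, and agr2 is on another chromosome. No entry with the gene ID of muc5e or muc5f was found in that annotation. The neighbours muc5.1 and muc5.2 differed in their change, as the ratio between them shows.

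Genes with the profile most like each member over the 6 libraries were sought among 15349 tested genes with a symbol and a mean of at least 5 CPM, by the root mean square (RMS) difference of log2 CPM after each gene's mean was subtracted. For agr2 they were cmtm7 (RMS difference 0.0269), pcdh1g18 (0.0286, counts not whole) and the cadherin gene cdh4 (0.0306). Their changes were -0.46, -0.47 and -0.45. For muc5.2 they were plekhs1 (RMS difference 0.0467), si:dkey-262k9.4 (0.0990) and si:dkey-175g6.2 (0.103), with changes of -1.26, -1.24 and -1.18. The closest by far was plekhs1, at 12.6 ± 1.81 CPM with DMSO and 5.27 ± 0.637 with DAPT. For muc2.1 they were the DNA helicase gene blm (RMS difference 0.0424), si:dkey-71h2.2 (0.0625) and the sterol reductase gene tm7sf2 (0.0717), with changes of -0.69, -0.73 and -0.71. With so many genes compared over 6 libraries, some close profiles are found for any gene.

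Transcription factors known from secretory fate moved in both directions beside the goblet cell genes. Of 14 tested, 6 were higher, 3 lower and 5 did not pass (median change 0.26). The zinc finger factor gene klf4, needed for goblet cells in the mouse colon and also known from skin, fell from 50.1 ± 3.89 to 22.9 ± 1.36 TPM (-0.97 ± 0.07, adjusted p = 6.23e-07, edgeR). The other falls were those of gfi1b (-0.70 ± 0.15), also a blood cell factor, and spdef, which drives goblet cell maturation in mice; both were chosen after their values were seen. The change of spdef was -0.49 ± 0.19 at 2.44 ± 0.264 TPM with DMSO and 1.55 ± 0.271 with DAPT, and its adjusted p of 0.0481 in edgeR was above 0.05 in 10 of 13 alternatives (0.00925 to 0.169), among them each fit that left out 1 library (0.0599 without DAPT replicate 3 to 0.169 without DAPT replicate 2). Among the rises was that of gfi1aa (1.02 ± 0.20), whose mouse relative acts in secretory progenitors. Its paralogue gfi1ab (0.75 ± 0.15, chosen after its values were seen), sox4a (0.41 ± 0.07) and sox9b (0.41 ± 0.08, counts not whole) rose too. The secretory determinants atoh1a and atoh1b, chosen after their values were seen, had changes of 0.65 ± 0.19 (adjusted p = 0.0161) and 0.51 ± 0.22 (adjusted p = 0.0779) in edgeR. The call of atoh1a was lost with DESeq2 on all libraries (0.65, adjusted p = 0.0707) and without DAPT replicate 3 (0.53, adjusted p = 0.0766, the highest of 13 alternatives, which began at 0.0154). The gene atoh1b passed at 0.86 without DMSO replicate 3 (adjusted p = 0.00142, the lowest of 13 alternatives, which reached 0.259). Genes of this list thus moved both with and against agr2 and muc5.2. For the rises and the falls alike, which cells of this mixed tissue gave the transcripts was not tested.

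Genes that serve mucin production moved in both directions, each tested gene of the 3 lists below by less than muc5.2. In the list of protein folding in the endoplasmic reticulum, where the agr2 product works, 4 of 14 were higher, 1 lower and 9 did not pass (median 0.04). The chaperone genes hspa5 and pdia3 rose by 0.50 ± 0.07 and 0.24 ± 0.05. The stress sensor gene ern2 rose by 0.35 ± 0.09 (counts not whole), and the isomerase gene pdia6 changed by -0.28 ± 0.06. On log2(TPM + 1) pdia3 was 0.08 (adjusted p = 0.203, limma) and ern2 0.16 (adjusted p = 0.17, limma), so that neither passed, and with library totals alone 3 genes of this list were lower. The gene txndc12, a close relative of agr2, was among the 9, at -0.13 ± 0.06 (adjusted p = 0.086, edgeR; chosen after its values were seen). Of 13 genes for enzymes that build the sugar chains of mucins, 1 was higher, 6 lower and 6 did not pass (median -0.18). The largest fall among these was that of gcnt3 at -0.67 ± 0.24, chosen after its values were seen, and galnt7 and c1galt1a changed by -0.26 ± 0.05 and -0.56 ± 0.17, while galnt3 rose by 0.52 ± 0.12. The call of gcnt3 was lost in 5 of 13 alternatives (adjusted p up to 0.138, without DAPT replicate 2) and that of c1galt1a in 4 of 13 (up to 0.0765, without DAPT replicate 2), DESeq2 among them for both. The gene galnt11 changed by -0.20 ± 0.06 and lost its call in 5 of 14 alternatives. The count of 6 fell to 3 without DMSO replicate 1 or DAPT replicate 1, 1 without DAPT replicate 2 and 2 without DAPT replicate 3. Of the membrane mucin list only muc13a, muc13b and cd164 were found, and of these 3 muc13a rose by 0.22 ± 0.07 (adjusted p = 0.0235, edgeR; 0.0209 to 0.535 over its alternatives, and 0.0501 without DMSO replicate 3 and 0.111 without DAPT replicate 2). The values of muc13b and cd164 were 0.17 ± 0.07 and 0.09 ± 0.06 and did not pass; with library totals alone and on the TPM scale cd164 was slightly below 0. The membrane mucin gene muc13a and the secreted mucin gene muc5.2 thus moved in opposite directions on the TMM scale.

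**Figure D3:**
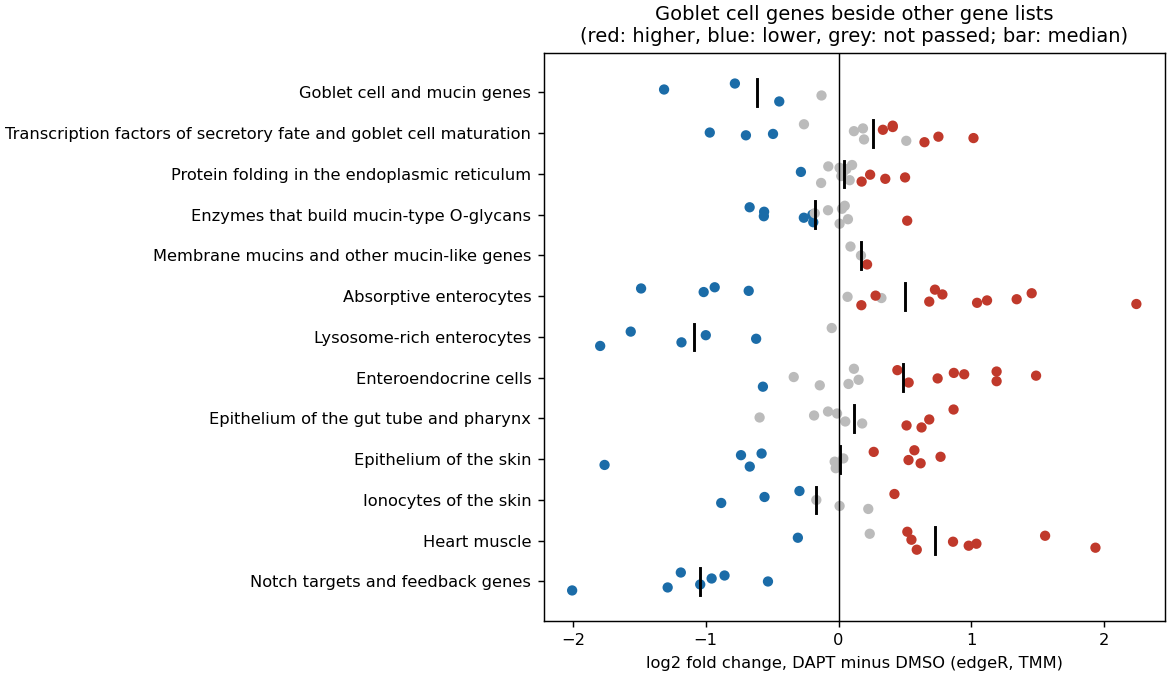
Log2 fold change (DAPT minus DMSO, TMM scale) of each tested gene of the goblet cell list and of 12 other lists. Each point is a gene, colours give the call at an adjusted p of 0.05 and black bars are medians. The goblet cell genes have a median of -0.61 and no gene above 0, beside several lists with genes on both sides of 0. The lists of lysosome-rich enterocytes (median -1.09) and of Notch targets and feedback genes (median -1.04) also have no gene above 0.

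Genes listed for skin epithelium moved in both directions. Those listed for the gut tube and pharynx that passed were higher on the TMM scale. Whether transcripts of the latter came from epithelium or from other cells was not tested. Of 10 genes of the gut tube and pharynx 4 were higher, among them barx1 (0.87 ± 0.09), nkx2.3 (0.68 ± 0.08) and hnf4a (0.51 ± 0.11), and 6 did not pass (median 0.12). The other higher gene, cdx4 (0.625 ± 0.202), lost its call in 7 of 13 alternatives. Without DAPT replicate 3 and with the replicate block 1 gene of that list was lower, and with library totals alone 3 were higher and 2 lower. Of 12 skin epithelium genes 5 were higher, 4 lower and 3 did not pass (median 0.01). The junction genes cdh1 (counts not whole) and cldni rose by 0.57 ± 0.05 and 0.77 ± 0.07. The barrier genes krt17 (counts not whole) and evpla changed by -1.76 ± 0.08 and -0.73 ± 0.05. Neither kind was uniform. The junction gene cldne did not pass (0.04 ± 0.06), and the keratin gene krt91 rose by 0.62 ± 0.08 (counts not whole). Both were chosen after their values were seen. As TPM the summed skin level was lower with DAPT, as given above. Most of that sum came from the keratin gene krt4, chosen after its values were seen. On the TMM scale krt4 changed by -0.02 ± 0.08 (adjusted p = 0.85, edgeR), with overlapping groups. The part of krt4 in the lower sum thus depends on the scale. The keratin genes krt5 (1667 to 942 TPM) and krt17 (1305 to 345 TPM) were called lower on the TMM scale too, at -0.67 ± 0.07 and -1.76 ± 0.08. In contrast, krt91 was higher on both scales (752.5 to 1035 TPM). The gene krt5 was chosen after its values were seen. The skin sum itself was not computed on the TMM scale. The part of skin level in the fall of agr2, muc5.2 and muc2.1 was not tested. Of 7 Notch targets and feedback genes 7 were lower, with a summed level of 230.6 to 250.2 TPM with DMSO and 108.8 to 116.7 TPM with DAPT. This list, like the others, was chosen with earlier results of these data known. The falls of agr2, muc5.2 and muc2.1 stood beside low Notch target transcripts in each DAPT library. Of all genes tested, 24.3% were called lower in the same comparison. A link between the goblet cell genes and the Notch targets was not tested.

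**Figure D4:**
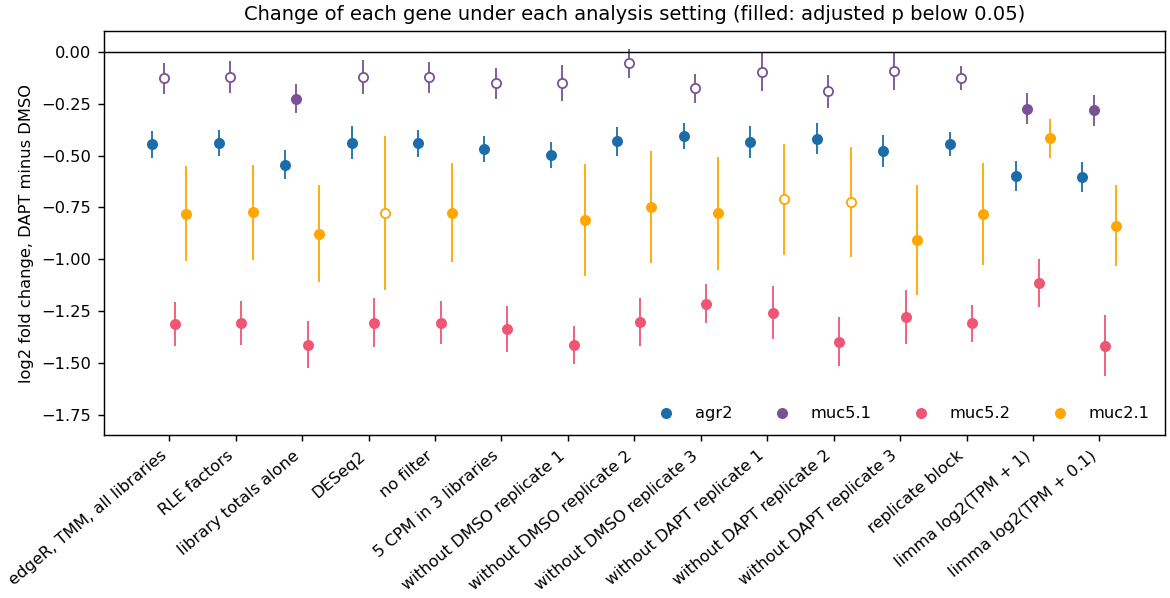
Log2 fold change (DAPT minus DMSO) of each gene, with its standard error, under the main analysis and each alternative. Filled points have an adjusted p below 0.05. Points of agr2 and muc5.2 are filled throughout, muc2.1 is open with DESeq2 and without DAPT replicate 1 or 2, and muc5.1 is filled with library totals alone and on the TPM scale. The filter of 5 CPM in 3 libraries has no point for muc2.1.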

How the data were processed

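RNA of 6 zebrafish libraries was sequenced, 3 with DMSO and 3 with DAPT. Per the file headers the authors deposited read counts, FPKM and TPM for each gene. Since 15.2 to 16.0% of the deposited counts are not whole, they were read as estimated counts, not scaled to a common total. The authors also deposited FPKM, used here for gene length alone, and TPM, both scaled per length and library, per the file headers. The 6 columns of the authors' group means were not used. The build was GRCz11, and the tools named were STAR 2.7.1a, featureCounts 1.6.0 and edgeR, without roles, per the submitters' processing notes; annotation, strand and counting rules are not given in the sources used here.

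After rounding, counts were tested in R 4.3.3 with edgeR 4.0.16 (filterByExpr, TMM factors, quasi-likelihood F test with 4 residual degrees of freedom, Benjamini-Hochberg over 22092 genes, threshold 0.05). After moderation across genes, p-values and intervals of the members rest on 11.99 degrees of freedom. Standard errors of edgeR are the absolute log2 fold change divided by the square root of F. The procedure was also run on simulated counts in which few genes changed and rises and falls were drawn with equal odds. In the real data 24.3% of genes were called lower and 22.4% higher, so that run cannot judge the scaling used here. Levels between genes were compared as TPM. Alternatives were DESeq2 1.42.0, limma 3.58.1 on log2(TPM + 1) and log2(TPM + 0.1), other scalings and filters, a replicate block and leaving out each library. Replicates of a group correlated at r = 0.989 to 0.994 across genes on log2 CPM. The members and the 12 other lists (135 entries, 128 found) were chosen with earlier results of these data known. All members found are named, and so are the 3 genes most like each member that passed. Genes of a list were taken from the 4 with the smallest p. None of these was named for heart muscle or Notch targets. Any other gene is said to be chosen after its values were seen.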

Additional observations from a re-analysis of the deposited data

How the results depend on the processing

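Over 14 alternatives 2 to 4 members were lower and 0 higher, and 8231 to 10483 genes were called in all. Values of agr2 and muc5.2 kept their direction and call in each. The change of muc2.1 did not pass with DESeq2 (-0.78), and ranged from -0.91 to -0.71 over the fits that left out 1 library, with the call lost in those without DAPT replicate 1 or 2. The change of muc5.1 passed with library totals alone (-0.23), with limma on log2(TPM + 1) (-0.27) and on log2(TPM + 0.1) (-0.28). These scales also shifted the changes of the tested genes, by a median of -0.098, -0.144 and -0.154. As TPM the summed level had a DAPT to DMSO ratio of 0.677, or 0.753 without agr2, against 0.833 as TMM-scaled CPM. The TPM ratios were not corrected for the shift of that scale. The value of cd164 turned to -0.009, -0.066 and -0.067 with library totals alone and the 2 TPM scales.

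Same-numbered DMSO and DAPT libraries did not deviate together (r = 0.00917, -0.0679 and -0.0255 across genes). The labels give them only a shared number, and such low correlations cannot exclude a shared clutch or batch. With the replicate block 9716 genes were called against 10302, and the changes of agr2, muc2.1, muc5.1 and muc5.2 were -0.44, -0.78, -0.13 and -1.31 with no call changed. List counts were not recomputed with DESeq2, without a filter or with limma on TPM. Of 240 list counts recomputed in the other alternatives 218 stayed within 1.5 times, counts that stayed at 0 included. Depth limits muc2.1 most.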

Other observations

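Among other cell types of the gut, most enterocyte and enteroendocrine genes that passed were higher with DAPT, and those of lysosome-rich enterocytes lower. Of 16 enterocyte genes 10 were higher and 4 lower, 2 were not called, and the median log2 fold change was 0.50. The fatty acid binding protein gene fabp1b.1 rose by 2.24 ± 0.07, the phosphatase gene alpi.1 by 1.34 ± 0.07, the regulator gene cdx1b by 1.12 ± 0.08 and the villin gene vil1 by 1.04 ± 0.06. The 4 that fell, picked with their values known, were the chitinase genes chia.1 and chia.2 and the apolipoprotein genes apoa4b.1 and apoa4b.2. Their changes were -1.49 ± 0.11, -0.93 ± 0.13, -1.02 ± 0.07 and -0.68 ± 0.06. All genes of lysosome-rich enterocytes, which take up protein from the gut lumen, that passed were lower, at 5 of 6 (median -1.09). Among them were the endocytic genes cubn at -1.79 ± 0.12, dab2 at -1.18 ± 0.07 and lrp2b at -0.999 ± 0.11, and the protease gene ctsbb at -1.56 ± 0.13. Kidney tubules also express cubn and dab2.

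Of 14 enteroendocrine genes, which mark the other main secretory cells of the gut, 8 were higher, 1 lower and 5 did not pass (median 0.49). The peptide hormone genes vipb, penka, adcyap1a and gcga rose by 1.49 ± 0.10, 1.19 ± 0.12, 1.19 ± 0.11 and 0.53 ± 0.06. Neurons or the pancreas express these genes too. The 1 lower gene was the neuronal and endocrine factor gene neurod1 (-0.57 ± 0.17, adjusted p = 0.0143, edgeR), chosen after its values were seen, whose call was lost with DESeq2 (-0.56, adjusted p = 0.0871) and without DAPT replicate 1 (-0.53, adjusted p = 0.0606) or 3 (-0.54, adjusted p = 0.0641), against 0.000195 to 0.0871 for all 14 alternatives. Of 7 skin ionocyte genes 1 was higher, slc12a10.2 at 0.42 ± 0.07, 3 were lower, namely the calcium channel gene trpv6 at -0.88 ± 0.09, ca2 at -0.56 ± 0.07 and atp6v1aa at -0.29 ± 0.06, and 3 did not pass; 2 were higher without DMSO replicate 2 or 3. Of 10 heart muscle genes 8 were higher, 1 lower and 1 did not pass (median 0.72). The 1 lower gene was actc1a (-0.31 ± 0.10, counts not whole, chosen after its values were seen). It did not pass without DMSO replicate 1 or DAPT replicate 2 or 3.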
